A study of Mus musculus with 6 samples.

Results

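Input chromatin of 2 immortalized mouse kidney cell lines, mK3 and mK4, was compared gene by gene and chromosome by chromosome. Input is the sheared genomic DNA that is sequenced without an antibody beside a chromatin immunoprecipitation (ChIP). Each line had 1 input library, so the comparison used 2 of the 6 libraries in the series. The other 4 were ChIP libraries labelled H3K4 and H3K27, 1 of each per line. The catalogue number given for the H3K4 antibody is, to general knowledge, that of an antibody against trimethylated lysine 9 of H3, so the libraries are called H3K4 here only as labelled. They were used here mainly to see whether an input difference recurred in other libraries of the same lines. They also served to choose 1 row per symbol, to group genes by H3K4 density and to set the ends of some stretches. All libraries came from lines labelled as metanephric, of stage E11.5 and strain CD1. No treatment was given in the labels. As background, mK3 and mK4 were derived from mice carrying a transgene in which regulatory sequence of Hoxa11 drives a viral large T antigen, and they are used as models of earlier and later metanephric mesenchyme. Each line is a single established culture, and a value below belongs to that culture.

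Input reads fall on a region in proportion to the number of DNA copies in the cells, modified by how well that chromatin shears, is recovered and is mapped. Features of the sequence itself, such as base composition and repeats, are the same for both lines on the same chromosome and largely cancel in a ratio between lines. Immortalized cells in culture commonly gain or lose whole chromosomes and large or small parts of chromosomes, and a T antigen inactivates the p53 and retinoblastoma proteins that guard the cell cycle.

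The deposited values were read counts over the exons of 22088 gene rows. The input columns summed to 311409 reads in mK3 and 386695 in mK4, with a median of 10 and 13 reads per row. ChIP columns summed to between 481235 and 714011 reads. Autosomes held 97.8% of input reads in mK3 and 96.7% in mK4. After rows of the same symbol were reduced to 1, 20907 autosomal genes were left, of which 20647 could be placed in chromosome order. Of these, 684 had no read in either input and 8729 had at least 30 reads over both. A ratio below is the share of the column sum in mK4 divided by that in mK3. Its interval is the exact Clopper-Pearson 95% interval and covers counting error only. With 1 library per line no difference has a replicate check and none was tested. Because the shares of a library add up to its whole, a ratio is relative to the rest of the genome and not to an absolute number of copies.

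Chromosome 3 had the highest input ratio of the 19 autosomes and chromosome 14 the lowest. Chromosome 3 held 14135 reads in mK3 and 32306 in mK4, a ratio of 1.84 (95% interval 1.8 to 1.88). Chromosome 7 held 12705 and 24364 reads, a ratio of 1.54 (1.51 to 1.58). Chromosome 15 held 16775 and 26296 reads, a ratio of 1.26 (1.24 to 1.29). These 3 autosomes passed the size used for a call, a ratio of at least 1.23. Chromosome 14 held 14190 reads in mK3 and 11343 in mK4, a ratio of 0.644 (0.628 to 0.66). Chromosomes 10, 9 and 17 also lay under the size for a lower call, a ratio of at most 0.812, at 0.805, 0.806 and 0.808. Those values were not far from the remainder. The median over the 19 autosomes was 0.928, and 7 autosomes lay between 0.805 and 0.867, with chromosomes 18, 16, 6 and 12 at 0.831, 0.833, 0.835 and 0.867. Chromosome 13 reached 1.13 (1.1 to 1.16), and chromosomes 2 and 8 lay at 1.04 and 1.03.

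The ChIP libraries of both lines gave nearly the same ratios. Chromosome 3 stood at 1.86 in the libraries labelled H3K4 and 1.89 in those labelled H3K27. Chromosome 14 stood at 0.644 and 0.641. Over all autosomes the largest gap between an input ratio and a ChIP ratio was 0.10 on the log2 scale, on chromosome 7, where H3K4 gave 1.55 and H3K27 gave 1.44. The next largest gap was 0.06. Differences in DNA copies and in chromatin recovery common to a line's 3 libraries cannot be told apart in these counts.

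**Figure D1:**
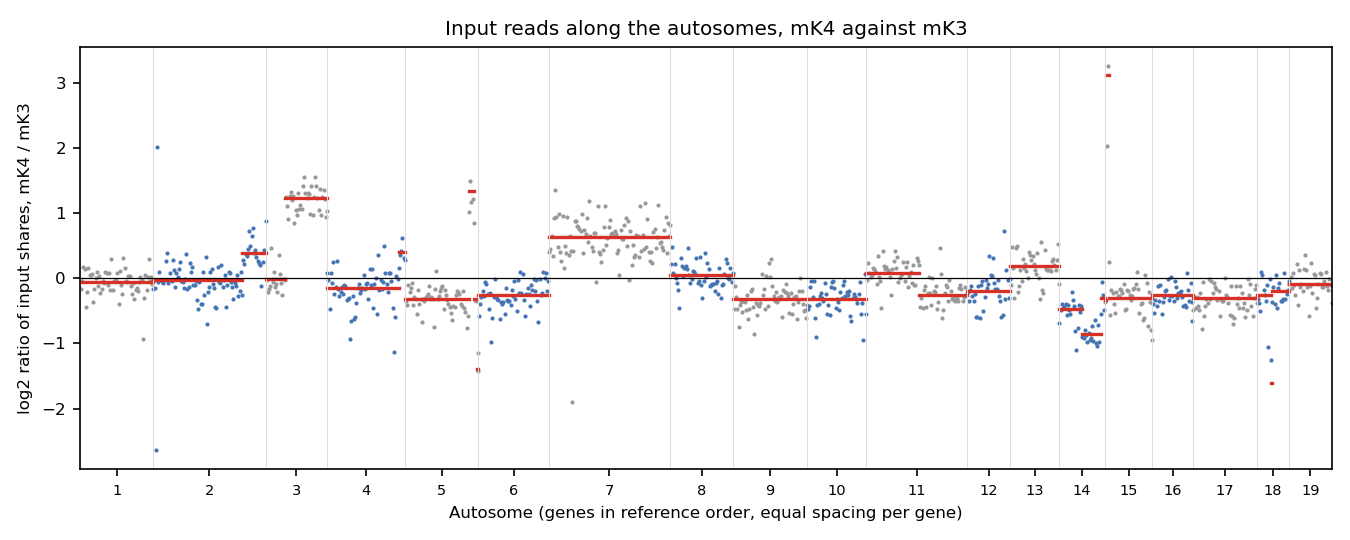
Ratio of input shares of mK4 over mK3 (log2, vertical axis) along the autosomes, with genes in reference order and equally spaced. Each point pools neighbouring genes and red lines are the ratios of the segments. Chromosomes 3 and 7 rise above 0, chromosome 14 falls below it, and 1 short run on chromosome 15 lies above 3.

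The density of reads within each line was used to see which culture departed from its own typical autosome. Density was the median over genes of reads per exon kilobase, divided by the line's median autosome. Base composition and mappability do not cancel in this value. Placing a difference in 1 line would assume a level of 1 for each region, which was not tested. Genes under 1000 exon bases and odorant and pheromone receptor genes, which had few reads, were left out. On chromosome 3 the density was 0.86 in mK3 and 1.83 in mK4, so mK4 lay further from 1. On chromosome 7 it was 0.484 in mK3 and 0.893 in mK4, so mK3 lay further from 1. The ChIP libraries of mK3 gave 0.5 and 0.551 for chromosome 7. On chromosome 14 the density was 1.27 in mK3 and 0.921 in mK4. Chromosome 13 had 0.776 in mK3 and 1 in mK4. Chromosomes 15 and 19 were dense in both lines, at 1.23 and 1.17 for chromosome 15 and 1.19 and 1.29 for chromosome 19. Chromosome 8 had 1.07 in mK3 and 1.27 in mK4. Of the 19 autosomes, 13 lay within 15% of the median in mK3 and 15 in mK4.

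**Figure D2:**
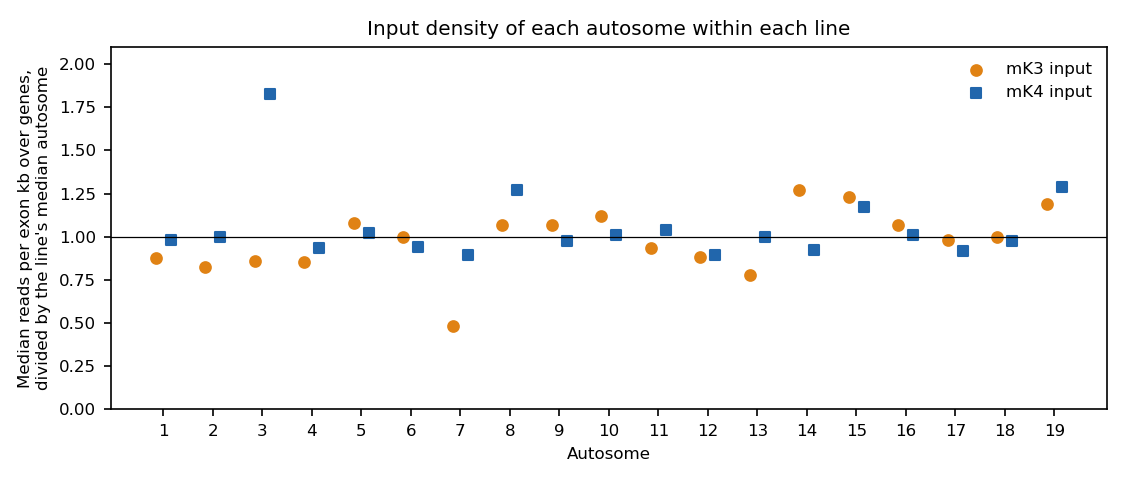
Median input reads per exon kilobase over the genes of each autosome, divided by the median autosome of the same line (vertical axis, linear, from 0), for mK3 (orange circles) and mK4 (blue squares). Chromosome 3 stands apart in mK4 at 1.83 and chromosome 7 in mK3 at 0.484.

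Chromosome 15 shows why sums over a chromosome need to be read with its genes. Its ratio of sums was 1.26, but the median gene with at least 10 reads had a ratio of 0.822, on the other side of 1. Its excess rested on a short run of genes described below, and the other parts of the chromosome had ratios of 0.794 and 0.811.

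A division of each autosome into stretches of even input ratio gave 32 segments. Of the 19 autosomes, 11 were held as 1 segment and 8 were split by 13 boundaries. There were 6 segments with a ratio of at least 1.23, which held 3297 genes (16%), and 11 with a ratio of at most 0.812, which held 5854 genes (28.4%). Of those 11 segments, 7 had a ratio of 0.79 or more. A broad level was shared by much of the genome: 14 segments with 8983 genes (43.5%) lay between 0.79 and 0.87. The gene-weighted median segment had a ratio of 0.903, and against it only 4 segments with 747 genes remained lower. Lower segments near 0.8 were therefore low against the column sum and close to the typical segment. Against the same median, 7 segments with 4101 genes were higher, among them chromosome 13 at 1.26.

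The highest ratio belonged to 35 consecutive genes of chromosome 15, from Nipbl, which loads cohesin on DNA, to the cadherin gene Cdh9. They held 950 reads in mK3 and 10231 in mK4, a ratio of 8.67 (8.11 to 9.28). The H3K4 libraries gave 8.49 and the H3K27 libraries 8.68. All 35 genes lay above the level of equal shares. The density of the run was 1.3 times the line's median gene in mK3 and 14.3 times in mK4. It dropped at both ends within 1 gene in the ChIP libraries: the boundary before Nipbl was the same in all 3 kinds of library, and the last boundary differed by 1 gene.

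The run was not even, and its inner pattern recurred. Its first 10 genes, Nipbl to Spef2, had 260 and 1953 reads and a ratio of 6.05 (5.31 to 6.91). The next 24, from the prolactin receptor gene Prlr to Cdh6, had 680 and 8246 reads and a ratio of 9.77 (9.03 to 10.6). H3K4 gave 5.3 and 9.98 for the same ranges, and H3K27 gave 5.57 and 9.8. This division was chosen after the values were seen. Prlr had 63 and 831 input reads, 98 and 1271 in H3K4, and 223 and 1266 in H3K27, for mK3 and mK4. Skp2, the substrate-binding subunit of a ubiquitin ligase that degrades cell cycle inhibitors, had 29 and 199 input reads, a ratio of 5.53 (3.73 to 8.47). Cdh6, a cadherin of nephron precursors, had 9 and 259, a ratio of 23.2 (12 to 51.3). Cdh9, the last gene, had 10 and 32, a ratio of 2.58 (1.24 to 5.88), far under the run, and the ChIP libraries placed the edge of the run 1 gene from it.

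Chromosome 5 held a second short stretch that was high in mK4 and, beyond it, 1 that was low. From 1700123K08Rik to Tmem130, 83 genes had 1575 reads in mK3 and 4930 in mK4, a ratio of 2.52 (2.38 to 2.67). H3K4 gave 2.43 and H3K27 2.34, and all 83 genes lay above equal shares in the inputs. The density of the stretch was 1.13 in mK3 and 3.59 in mK4. It held Actb, the cytoplasmic actin gene often used as a reference, with 28 and 58 input reads and a ratio of 1.67 (1.05 to 2.72). Rac1, a small GTPase of the actin cytoskeleton, had 19 and 58 reads and a ratio of 2.46 (1.44 to 4.37). Lfng, whose product adds sugars to Notch receptors, had 23 and 68 reads and a ratio of 2.38 (1.46 to 4). The mismatch repair gene Pms2 had 24 and 63 reads and a ratio of 2.11 (1.3 to 3.54).

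After 48 genes from Trrap to Mtus2 at a ratio of 0.799 (0.721 to 0.885), chromosome 5 ended in 26 genes, Slc7a1 to Rfc3, that were low in mK4. They had 729 reads in mK3 and 345 in mK4, a ratio of 0.381 (0.334 to 0.434), which is 2.62-fold lower. H3K4 gave 0.316 and H3K27 0.381, and all 26 genes lay below equal shares in the inputs. The density was 1.58 in mK3 and 0.548 in mK4, so each line departed from its own median, in opposite directions. With a boundary penalty of 6 times the log of the number of genes, they merged with the 48 genes before them, at 0.593. Brca2, which loads the recombinase on broken DNA, had 89 and 42 input reads, 206 and 60 in H3K4, and 111 and 32 in H3K27. Its input ratio was 0.38 (0.257 to 0.554). Kl, which encodes the klotho co-receptor of the distal nephron, had 24 and 9 input reads, 59 and 14 in H3K4, and 69 and 17 in H3K27. Stard13, which encodes a GTPase-activating protein, had 53 and 31 input reads and a ratio of 0.471 (0.292 to 0.747). In all 3 kinds of library these genes were lower in mK4. Kl, Stard13, Rac1, Lfng and Pms2 were chosen after their values were seen.

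**Figure D3:**
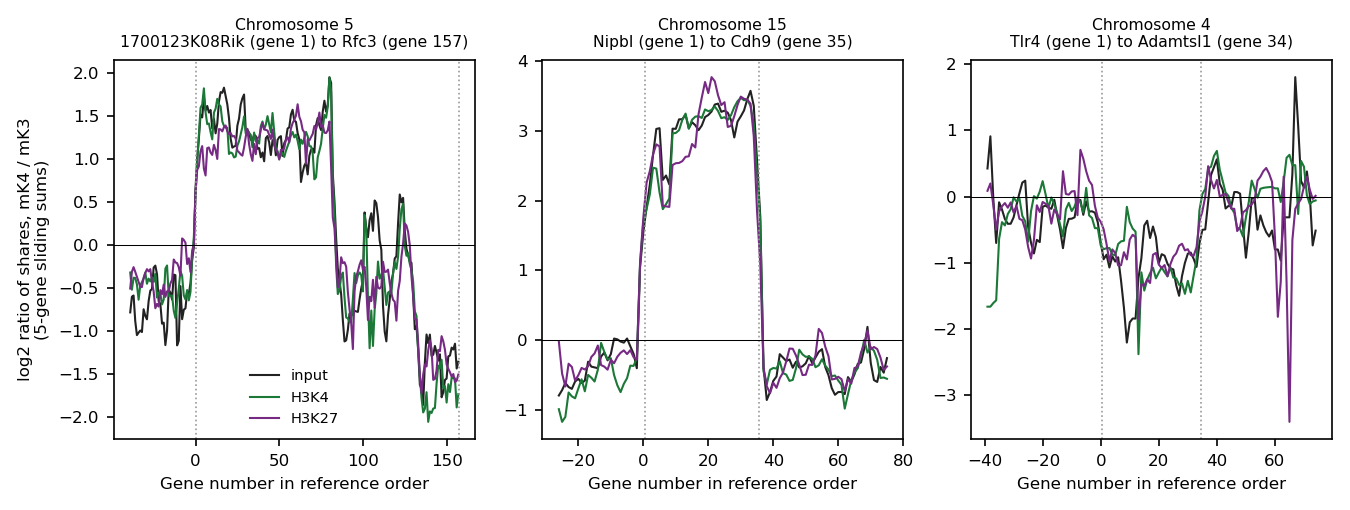
Log2 ratio of shares of mK4 over mK3 in sliding sums of 5 genes (vertical axis) against gene number in reference order, in input (black), H3K4 (green) and H3K27 (purple) libraries. Dotted lines mark the stretches on chromosomes 5, 15 and 4. The 3 curves rise and fall at nearly the same genes on chromosomes 5 and 15.

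Chromosome 3 was split in 2, and its excess lay in the larger part. The first 322 genes, Hnf4g to Lrba, had a ratio of 0.993 (0.957 to 1.03). The other 679, Mab21l2 to Wls, had 8855 and 25673 reads and a ratio of 2.33 (2.28 to 2.39), and 2.33 and 2.34 in the ChIP libraries. The density of this part was 0.829 in mK3 and 2.3 in mK4. There, 625 genes lay above equal shares and 38 below. The boundary was 1 gene away in H3K4 and the same in H3K27. Notch2, a receptor needed for proximal nephron identity, had 49 and 168 input reads and a ratio of 2.76 (2 to 3.88). Lef1, a transcription factor of canonical Wnt signalling, had 13 and 46 reads and a ratio of 2.85 (1.51 to 5.75). The small GTPase gene Nras had 43 and 86 and a ratio of 1.61 (1.1 to 2.38), and Ash1l, a histone methyltransferase gene, had 70 and 187 and a ratio of 2.15 (1.63 to 2.87).

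The ratio of chromosome 7 was high along its whole length, from Speer9-ps1 to Mrgprd, with 1380 of 2009 genes above equal shares and 464 below. Ccnd1, which encodes cyclin D1, had 15 and 36 input reads there and a ratio of 1.93 (1.03 to 3.8). Smaller rises of the ratio lay at the ends of chromosomes 2 and 4. Density there was 0.703 in mK3 and 1.1 in mK4 on chromosome 2, and 0.698 and 1.1 on chromosome 4. The last 393 genes of chromosome 2, Defb21 to Polr3k, had 4169 and 6782 reads and a ratio of 1.31 (1.26 to 1.36), with 1.3 in H3K4 and 1.21 in H3K27. The remainder of that chromosome lay at 0.98 (0.96 to 0.999). Its edge was 58 genes away in H3K4 and 39 in H3K27. Bcl2l1, which encodes a protein that blocks apoptosis, had 8 and 27 input reads there and a ratio of 2.72 (1.2 to 6.92). The last 98 genes of chromosome 4, Slc45a1 to Klhl17, had 1043 and 1708 reads and a ratio of 1.32 (1.22 to 1.43), with 1.37 and 1.3 in the ChIP libraries. Under a stricter division they merged with the rest of the chromosome, at 0.928.

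Chromosome 14 was divided into 3 parts, of which 2 passed the size for a lower call. The middle 320 genes, from Homez on, had 7008 reads in mK3 and 4825 in mK4, a ratio of 0.554 (0.534 to 0.575), with 0.573 and 0.59 in the ChIP libraries. Their density was 1.52 in mK3 and 0.929 in mK4, so mK3 lay further from its own median autosome. The 379 genes before them, Gm2897 to Slc7a8, had a ratio of 0.717 (0.691 to 0.744), and the 59 after them, Mycbp2 to Fgf14, had 0.814 (0.746 to 0.887), which is not a lower call. With a penalty of 6 times the log the whole chromosome was 1 stretch, at 0.644. Rb1, the retinoblastoma gene, lay in the middle stretch, with 65 and 31 input reads, 66 and 51 in H3K4, and 75 and 34 in H3K27. Its input ratio was 0.384 (0.242 to 0.598). Fgf9, a growth factor that maintains nephron progenitors, had 30 and 24 input reads and a ratio of 0.644 (0.36 to 1.14). The inner boundaries of chromosome 14 were less well placed than others. The first was 21 genes away in H3K4, the other was 341 genes away, and H3K27 gave no boundary on that chromosome.

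Chromosome 11 changed level within the chromosome, from 1.06 (1.03 to 1.08) over 876 genes, Pisd-ps1 to Ift20, to 0.836 (0.816 to 0.856) over 784 genes, Tmem97 to Ptchd3. The same boundary appeared in H3K4 and 1 lay 4 genes away in H3K27. Chromosome 4 held a further stretch that the chosen division did not separate. Its 34 genes from Tlr4 to Adamtsl1 had 598 and 356 reads and a ratio of 0.479 (0.419 to 0.548), with 0.47 in H3K4 and 0.518 in H3K27. It was chosen after its values were seen, and its ends are those of the H3K27 division, so the H3K27 value is no separate support. With a penalty of 1.5 times the log the inputs gave 35 genes, Tlr4 to Fam154a, at 0.479. The H3K4 division gave 32, Cdk5rap2 to Adamtsl1, with an input ratio of 0.491. Nfib, a transcription factor gene in it, had 59 and 49 input reads, 123 and 79 in H3K4, and 76 and 27 in H3K27.

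Across the 32 segments the log2 ratios of the inputs had a Pearson correlation of 0.975 with those of H3K4 and 0.956 with those of H3K27. The points share their gene order and cell lines, and the values are a description. In 30 of 32 segments both ChIP ratios lay within 0.25 of the input on the log2 scale. Of the 13 boundaries, 7 had 1 within 1 gene in H3K4 and 6 in H3K27. The largest gap was 1.29, and the second largest was 0.27.

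**Figure D4:**
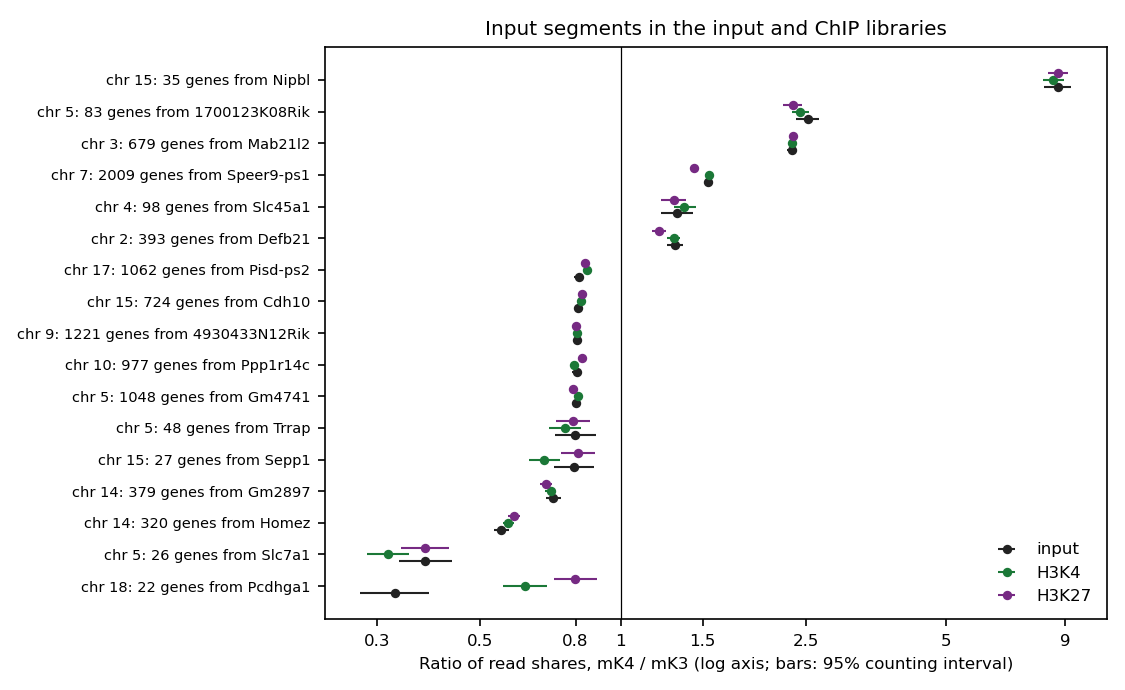
Ratio of shares of mK4 over mK3 (log axis) of the 6 higher and 11 lower input segments, each named by its first gene, in input (black), H3K4 (green) and H3K27 (purple) libraries. Bars are 95% counting intervals. The ChIP ratios lie within 0.27 of the input on the log2 scale in all but the protocadherin segment of chromosome 18.

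The exception was the gamma protocadherin cluster of chromosome 18, cell surface proteins whose many variable exons are spliced to shared constant exons. Its 22 genes, Pcdhga1 to Pcdhgc5, had 484 input reads in mK3 and 197 in mK4, a ratio of 0.328 (0.276 to 0.388). H3K4 gave 0.623 and H3K27 0.799. The 225 genes before lay at 0.836 and the 277 after at 0.873. The genes just before were not even: with a penalty of 1.5 times the log of the number of genes, 26 genes from Hars to Pcdhb7 had an input ratio of 0.518, with 0.781 in H3K4 and 0.688 in H3K27, and the next 17, Pcdhb8 to Taf7, had 1.13. With a penalty of 6 times the log, the gamma cluster was not separated, and the whole chromosome lay at 0.831. The input density of the cluster was 0.873 in mK3 and 0.295 in mK4. No ChIP division held a boundary on that chromosome. The 22 genes can count the same reads over their constant exons, so they do not amount to 22 separate measurements, and the interval is too narrow.

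Segments took up part of the spread between genes, and not all of it. The dispersion of gene counts, for which 1 is counting noise alone, was 2.64 in the inputs with 1 ratio for all autosomes. It was 2.21 with 1 ratio per chromosome and 1.73 with 1 per segment, over 19963 genes. With the same input segments it went from 3.75 to 2.1 in H3K4 and from 3.18 to 1.75 in H3K27. The ChIP libraries had no part in choosing those segments.

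Gene by gene, 1029 of 20647 genes (4.98%) had a 2-fold or larger excess in mK4, and 917 (4.44%) a 2-fold or larger deficit. Gene values were compared as log2 of reads at equal depth plus a pseudocount of 5, which understates the change of genes with few reads. The higher genes were mostly where the higher segments were: 659 of 1029 (64%) lay in them, beside 16% of all genes. Of the lower genes, 443 of 917 (48.3%) lay in lower segments, beside 28.4% of all genes. Both shares follow from how the segments were drawn and are a description.

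Local differences were taken as the gene's log2 ratio less that of its segment, here called the departure. There were 722 genes (3.5%) at least 2-fold above their own segment and 679 (3.29%) at least 2-fold below. Most had few reads. The genes above had a median of 3 reads in mK3 and 15.5 in mK4, and those below 12 and 4. Only 192 and 168 of them had at least 30 reads over both inputs. The pseudocount pulls genes with few reads toward 0 and so below a segment of high ratio. Against the ratio expected at each gene's own reads, 572 and 489 of them were still called.

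The ChIP libraries repeated few of the local differences. Of the 722 genes above, 41 (5.68%) were also 2-fold above their segment in H3K4, where 1.33% of all genes were, and 7 (0.97%) in H3K27, where 0.785% were. Calls in the other direction numbered 3 and 9. Of the 679 below, 68 (10%) were below in H3K4, where 1.42% of all genes were, and 56 (8.25%) in H3K27, where 1.62% were, with 8 and 5 in the other direction. Median departures of the genes above were 1.18 in input, 0.17 in H3K4 and 0.09 in H3K27. Those of the genes below were -1.19, -0.25 and -0.23. Across genes with at least 30 input reads, departures in input had a correlation of 0.23 with H3K4 and 0.12 with H3K27. Genes are not independent replicates, and these values are a description.

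Of the genes above in input, 3 were above in both ChIP marks, and of those below, 29. Of these 29, 26 lay in the high part of chromosome 3 or the chromosome 15 run and 22 had under 30 input reads. When the departure was taken at each gene's own reads, 2 and 3 were left. Those above were Gm1995 and Scx, and Tusc1 and Cdh9 were among those below. Scx, a transcription factor gene of tendon, had 5 and 24 input reads, 7 and 31 in H3K4, and 5 and 13 in H3K27. Tusc1 had 19 and 5 input reads, 46 and 13 in H3K4, and 31 and 8 in H3K27. Gm1995 had 3 and 13 input reads, 2 and 35 in H3K4, and 8 and 25 in H3K27. The genes were chosen for a call in the same direction in all 3 kinds of library, so that agreement is no finding.

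The 24 genes named by the size of their input departure, among 8111 with a standard name and at least 30 reads, gave a mixed picture. Stau2, which encodes an RNA-binding protein that transports messenger RNA in neurons, had 8 and 53 input reads and a ratio of 5.34 (2.52 to 13), with a departure of 1.98. Its H3K4 reads were 16 and 44 and its H3K27 reads 27 and 27, for departures of 0.97 and 0.27. Cdx2, a homeobox gene of the hindgut and trophectoderm, had 7 and 32 input reads and a departure of 1.72, with 1.14 in H3K4 and 0.25 in H3K27. Both were less displaced in the ChIP libraries than in input. Ctxn1 had 3 and 32 input reads and a departure of 1.97, with 1.15 and 0.39. Rgs2, a regulator of G protein signalling, had 8 and 40 input reads but 36 and 36 in H3K4 and 30 and 25 in H3K27, so its excess was seen in input alone. Ppt1, which encodes a lysosomal enzyme, had 8 and 36 input reads, and its ChIP departures were -0.19 and -0.74. The other 7 were Il22ra2, Ccdc122, Rundc1, Cybrd1, Pkd1l2, Jmjd4 and Dbndd1, with input departures from 1.51 to 1.95. Over the 12 higher genes, H3K4 had the same sign in 9 and H3K27 in 10, with median departures of 0.51 and 0.24.

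Among the 12 lower genes, Rcn1, which encodes a calcium-binding protein of the endoplasmic reticulum, had 29 and 4 input reads, a ratio of 0.111 (0.0284 to 0.316). It had 45 and 32 reads in H3K4 and 14 and 16 in H3K27, for departures of -2.09, -0.58 and 0.34. Cps1, the first enzyme of the urea cycle, had 28 and 4 input reads, 31 and 41 in H3K4, and 77 and 27 in H3K27. H3K27 shared its direction and H3K4 did not. Hoxc8 had 49 and 10 input reads, 83 and 10 in H3K4, and 38 and 43 in H3K27. It was low in mK4 in input and H3K4 and not in H3K27. Htr2a, a serotonin receptor gene, had 50 and 7 input reads, 79 and 25 in H3K4, and 68 and 42 in H3K27. Gbp1, a guanylate-binding protein gene on the high part of chromosome 3, had 37 and 25 input reads, 36 and 44 in H3K4, and 50 and 39 in H3K27. Its input ratio was 0.544 (0.314 to 0.928), in a segment at 2.33. The remaining 7 were Capsl and Cdh9 in the chromosome 15 run, and Nkx2-2as, Rnf144a, Ppp1r3d, Fam19a2 and Gas6. Over the 12 lower genes, H3K4 had the same sign in 9 and H3K27 in 8, with median departures of -0.58 and -0.46.

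**Figure D5:**
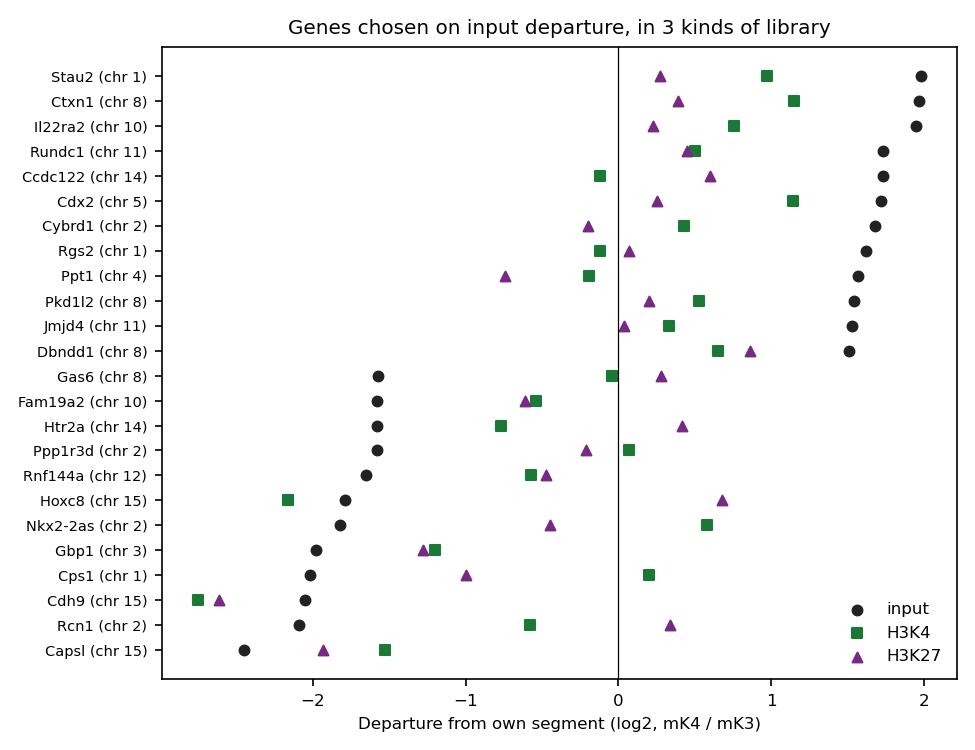
Departure from the own segment (log2, horizontal axis) of the 24 named genes in input (black circles), H3K4 (green squares) and H3K27 (purple triangles). The genes were chosen on the black circles. Most green and purple points lie nearer to 0.

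Apart from pairs of genes that share their reads, no run of neighbouring genes lacked reads in 1 line while each had at least 10 in the other. There were 6 genes with no read in 1 input and at least 15 in the other, and none of them was at 0 in any ChIP library. Edaradd, an adaptor of the ectodysplasin receptor, had 0 and 20 input reads, 13 and 21 in H3K4, and 23 and 22 in H3K27. The exact 95% interval of its ratio began at 3.98. Tusc3, a subunit of an oligosaccharyltransferase, had 0 and 16 input reads, 30 and 53 in H3K4, and 10 and 18 in H3K27, and its interval began at 3.11. Cplx1, a synaptic complexin gene, had 0 and 16 input reads, 21 and 13 in H3K4, and 37 and 27 in H3K27. Reg4 and the ribosomal protein gene Rpl34, both on the high part of chromosome 3, had 0 and 18 and 0 and 15 input reads. Rabl5, a gene of intraflagellar transport, was the only 1 without reads in mK4, with 19 and 0 input reads, 15 and 8 in H3K4, and 8 and 2 in H3K27, and the interval of its ratio ended at 0.173. ChIP reads were few at some of these loci: Rpl34 had 4 and 18 in H3K4 and 1 and 4 in H3K27. Whether loss of DNA had a part was not tested.

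Gene lists related to growth control, kidney and chromatin were read against the 4.98% of genes higher and 4.44% lower. Of 27 tumour suppressor genes, 0 were higher and 5 lower, with a median log2 ratio of -0.26 beside -0.02 for all genes. The 5 were Brca2, Rb1, Cdkn2b, Trp53 and Rassf1. Less the segment, the median of the list was 0.05. Cdkn2b, an inhibitor of cyclin-dependent kinases, had 29 and 14 input reads, 33 and 29 in H3K4, and 12 and 8 in H3K27. Trp53, which encodes p53, had 12 and 4 input reads, 27 and 33 in H3K4, and 12 and 8 in H3K27, a ratio of 0.268 (0.0631 to 0.886). Of 32 proto-oncogenes, 3 were higher, Skp2, Bcl2l1 and Akt2, and 0 lower, with a median of 0.18 and 0.04 less the segment. All 3 lay in higher segments. Single members still lay away from their segments: Trp53 by -1.18, Cdkn2b by -0.94, Rassf1 by -0.77, Skp2 by -0.82 and Bcl2l1 by 0.68.

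Of 36 kidney development genes, 5 were higher and 1 lower, with a median of 0.03. Cdh6, Notch2 and Lef1 were higher and lay in higher segments, while Irx3 and Lhx1 did not, and Tcf21 was lower. Irx3, a homeobox gene of the intermediate nephron, had 3 and 18 input reads and a ratio of 4.83 (1.41 to 25.6), but 37 and 45 in H3K4 and 37 and 23 in H3K27. Gdnf, the ligand that draws out the ureteric bud, had 19 and 38 input reads, 50 and 56 in H3K4, and 47 and 24 in H3K27, a ratio of 1.61 (0.906 to 2.96). Of 33 measured genes of H3K4 and H3K27 methylation, 1 was higher, Ash1l, and 1 lower, Dpy30, with a median of -0.14. Ezh2, the main H3K27 methyltransferase gene, had 33 and 18 input reads, 35 and 31 in H3K4, and 22 and 18 in H3K27. Of 14 housekeeping genes, 1 was higher and 1 lower. B2m had 1 and 10 input reads and Gapdh 8 and 2, which shows how few reads such short genes held.

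The summed shares of the Hox and protocadherin families were lower in mK4. Of 39 Hox genes, 1 (2.56%) was higher and 4 (10.3%) lower, beside 4.98% and 4.44% of all genes. Their median log2 ratio was -0.53 and their ratio of summed shares 0.606 (0.556 to 0.66). Hoxd3 was the higher gene, with 3 and 17 input reads, and Hoxc8 and Hoxc5 were among the lower, Hoxc5 with 24 and 4. Of 59 clustered protocadherin genes, many of them with shared exons, 0 were higher and 28 (47.5%) lower. Their median was -0.84 and their ratio of summed shares 0.549 (0.501 to 0.602). Less the segment, the medians were -0.27 for Hox genes and 0.14 for protocadherins. The gamma protocadherins make up a segment of their own, so taking off its ratio removes their shared deficit. The protocadherin median therefore does not show whether the family was locally low. The Hox genes held 1237 and 931 reads in all, a large part of them in Hoxa10 and Hoxa11, 2 of 37 genes with at least 5-fold the median density in both inputs. Hoxa10 had 322 and 175 reads, or 102 and 55.6 per exon kilobase, and a ratio of 0.438 (0.362 to 0.528). Its reads were 757 and 345 in H3K4 and 223 and 87 in H3K27, also lower in mK4. Hoxa11 had 347 and 245 reads, or 154 and 109 per exon kilobase, and a ratio of 0.569 (0.481 to 0.672). It had 594 and 392 reads in H3K4 and 437 and 206 in H3K27. Its antisense gene Hoxa11as had 302 and 325 input reads, 1450 and 948 in H3K4, and 398 and 220 in H3K27. Reads of a transgene that carries Hoxa11 sequence and of the chromosomal gene cannot be told apart in these counts, nor can those of overlapping genes.

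Of the other dense genes, the 7 described here differed from their segments by less than 2-fold. Mir1898, Mir3093, Snord45c and Hist2h2ab, dense genes in segments of high ratio, lay further below, at -2.72, -1.52, -1.52 and -1.18. Against the ratio expected at their own reads, these departures were -0.56, -0.79, -0.69 and -0.78. Sfi1, a centrosomal protein gene with many near copies in the mouse genome, had 371 and 427 reads and a ratio of 0.927 (0.805 to 1.07). Ctgf, Cyr61 and Ankrd1, transcriptional targets of the Hippo pathway, were dense in both inputs. Ctgf had 87 and 126 reads and a ratio of 1.17 (0.88 to 1.55). Ankrd1 had 46 and 48 and a ratio of 0.84 (0.549 to 1.29). Cyr61, on the high part of chromosome 3, had 61 and 147 and a ratio of 1.94 (1.43 to 2.66). The immediate early gene Ier2, the stress response gene Atf4 and the noncoding Neat1 were dense as well, with ratios of 0.839, 1.07 and 1.04.

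Input density rose with the H3K4 density of genes in both lines. Genes were divided into 5 equal groups by H3K4 reads per exon kilobase, and from the lowest to the highest group input density went from 2.73 to 8.32 reads per kilobase in mK3. In mK4 it was 3.32 in the lowest and 7.19 in the second highest group, and higher still in the highest. The ratio between lines in the highest group was 1.11, but mK4 reads were 0.999 times those expected from the segments. Over the 5 groups that value stayed between 0.99 and 1.01. By exon length, it stayed between 0.989 and 1. The share of genes 2-fold above their segment was 4.46% in the shortest 1 of 5 groups, with a median of 915 exon bases, and 1.8% in the longest, with 5497. The share below was 5.08% and 1.58%. Local differences were thus more common among short genes, which hold fewer reads.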

How the data were processed

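Libraries of 2 mouse cell lines were compared, 1 per line for input, H3K4 and H3K27. The authors deposited, per gene row, read counts over exons, the RPKM (reads scaled to exon length and library size) and the summed exon length. Per the submitters' processing notes, the build is mm9. Which aligner and counter made the values is not given in the sources used here. Deposited RPKM was used only to check that it follows from the deposited counts and lengths. Column sums were 311409 (mK3) and 386695 (mK4) input reads. Intervals cover counting error only, and PCR copies are not independent molecules.

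Where a symbol had several rows (137 symbols), 1 was kept, that of largest mean in the 4 ChIP libraries. Gene order was taken from RefSeq (GRCm38.p6) and used for neighbours only: 18467 genes matched by symbol, 2180 by synonym and 260 not at all. Segments minimised the binomial deviance divided by a dispersion of 1.65, with a penalty of 3 times the log of the number of genes per boundary, at least 10 genes per segment and at most 50 reads of weight per gene. The 37 dense genes were left out. The segmentation was tested on simulated data. Gene values used a pseudocount of 5 and a 2-fold limit.

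Members, lists and rules were chosen with earlier results of these data known. Named genes were the 12 with the highest and the 12 with the lowest departure among genes with at least 30 input reads and no clone name, segment ends, list members in the 6 highest and 6 lowest segments, up to 4 further list members of largest ratio, and genes without reads in 1 line. Genes outside this rule are said to be so chosen where they appear, with some exceptions. These are dense genes, Nfib, Prlr, genes called in all 3 kinds of library, and the called list members Rassf1, Lhx1 and Tcf21. They were also chosen after their values were seen. Python 3.11.15, numpy 2.4.6, pandas 2.3.3, scipy 1.17.1 and matplotlib 3.10.9 were used.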

Additional observations from a re-analysis of the deposited data

How the results depend on the processing

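No paired analysis was possible because each line had 1 library of each kind. With 1 library per line, none could be left out. Leaving out dense genes, genes under 10 reads or the sex chromosomes from the totals moved the 19 chromosome ratios by at most 1.02-fold. Divided by the median autosome, the ratios were 1.98 for chromosome 3, 1.66 for 7, 1.36 for 15, 0.694 for 14, 0.868 for 9, 0.867 for 10 and 0.871 for 17. As a gene median, chromosome 3 had 1.95, chromosome 7 had 1.61 and chromosome 15 had 0.822, on the other side of 1. Divided by the gene-weighted median segment, a scale added after the data were seen, 4 segments with 747 genes were lower. On that scale 7 segments with 4101 genes were higher. With a boundary penalty of 6 times the log, Slc45a1 to Klhl17 merged into chromosome 4 at 0.928, Slc7a1 to Rfc3 joined Trrap to Mtus2 at 0.593, the gamma protocadherins joined chromosome 18 at 0.831, and chromosome 14 was undivided at 0.644. Counts of 2-fold genes depended on the pseudocount. With a pseudocount of 1 there were 2414 higher and 2523 lower, and 2137 above and 1939 below their segment. With 20 there were 154 and 38, and 54 and 206. Among genes with at least 20 reads, 579 were lower, and 346 lay above and 306 below their segment. With a pseudocount of 20, the departures of Reg4 and Rpl34 became -0.37 and -0.48. The median of 10 and 13 reads per row limits what a single gene can show, and mappability on the authors' build was not examined here.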

Other observations

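Receptor and defence gene families that vary in copy number between mouse strains held too few reads to be compared singly. Of 1113 olfactory receptor genes, 28 (2.52%) were higher in mK4 and 49 (4.4%) lower, beside 4.98% and 4.44% of all genes, and 2 had at least 30 reads. Of 331 vomeronasal receptor genes, 10 (3.02%) were higher and 7 (2.11%) lower. None of 19 major urinary protein genes and none of 57 defensin genes passed the 2-fold limit, with 19 and 12 reads in all for the former and 70 and 81 for the latter. Of 15 Ly49 receptor genes of natural killer cells, 2 were lower, and their summed reads were 72 and 56, a ratio of 0.626 (0.434 to 0.901). Of 349 Zfp zinc finger genes, 32 (9.17%) were higher and 16 (4.58%) lower, with a median log2 ratio of 0.06 and -0.02 less the segment. The higher ones included Zfp566, Zfp420 and Zfp94 on chromosome 7, with 4 and 31, 5 and 32, and 2 and 19 input reads. Of 67 clustered histone genes, 3 (4.48%) were higher and 1 (1.49%) lower, and Hist2h4 and Hist2h2bb on the high part of chromosome 3 had 4 and 26 and 7 and 33 reads. Of 91 cytosolic ribosomal protein genes, 6 (6.59%) were higher and 1 (1.1%) lower.

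A pair of neighbouring genes had no read in mK3 and at least 10 in mK4 in 2 places. Snrpn and Snurf had 0 and 12 each, and Olfr1433 and Olfr1434 had 0 and 11 each. Within each pair the counts were identical in all 6 libraries, so each pair counts as 1 measurement. Snrpn had 3 and 13 reads in H3K4 and 11 and 7 in H3K27, and Olfr1433 had 12 and 9 and 13 and 6.

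Further stretches were chosen after their values were seen. The 24 genes at the end of chromosome 15, Hoxc12 to Glycam1, had 403 and 263 input reads, a ratio of 0.526 (0.448 to 0.615), with 0.58 in H3K4 and 0.982 in H3K27. The H3K4 division split this end in 2. Its 10 genes from Hoxc13 to Mir615 had 0.353 in input, 0.274 in H3K4 and 1.53 (1.26 to 1.85) in H3K27. The 15 from Hoxc4 to Glycam1 had 0.638, 0.885 and 0.798. The pooled H3K27 value thus joins ranges that went opposite ways. On chromosome 9, 57 genes from Cox5a to Itga11 had a ratio of 1.16 (1.06 to 1.27), with 1.07 and 1.13, on a chromosome at 0.806. On chromosome 12, 98 genes from Map3k9 to Tshr had 1.1 (1.02 to 1.18), with 1.18 and 1.06, on a chromosome at 0.867. The ends of this stretch are those of the H3K4 division, so the H3K4 value is no separate support.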
